A study of Mus musculus with 12 samples.

Results

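The 37 genes described here encode the enzymes that make sterols and fatty acids and the proteins that control them, and they were read in natural killer (NK) cells with and without the microRNA miR-142. They were picked by name for their textbook roles, with earlier results of these data known. They were read from probe sets whose annotation gives exactly 1 gene symbol, with the probe set of highest mean kept for each gene. Such a probe set was found for 36 of the 37, of 19938 genes on the array, and Acat2 was not analysed here. Of the 36, 32 lay above the level at which genes were tested (a mean log2 signal of 5.492 over all 12 arrays, the 40th percentile), of 11963 genes tested in all. Fdps, Scd1, Fads1 and Fads2 lay below it.

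The 4 groups were miR142 KO bone marrow, miR142 WT bone marrow, miR142 KO spleen and miR142 WT spleen, with 3 arrays each that the labels call biological replicates. All mice were of strain C57BL6, aged 7 to 10 weeks and matched for age and sex, and no group had a further treatment in the labels. Each array held RNA of cells sorted as CD3- and NK1.1+, amplified as cDNA before hybridisation. How the miR-142 deletion was made, and whether mice were pooled, is not given in the sources used here, so p-values measure the spread between these arrays.

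Cholesterol is made from acetyl-CoA through the mevalonate pathway to squalene, which is closed into lanosterol and then trimmed to cholesterol. Fatty acids are built from the same acetyl-CoA and are then lengthened by elongases and given double bonds by desaturases. The SREBP factors switch on both sets of genes: SCAP carries them out of the endoplasmic reticulum when sterols are low, and the INSIG proteins hold SCAP back when sterols are high. In lymphocytes both pathways are known to be raised when cells grow and divide, and SREBP activity has a known role in the metabolism of activated NK cells. Lipins make the diacylglycerol used for storage lipid, and the ABC transporters ABCA1 and ABCG1 export cholesterol.

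miR-142 gives 2 mature strands, shown here because they are what the knockout lacks. They lie on chromosome 11 (RefSeq, build GRCm38.p6, plus strand), the 5p strand at chr11:87756867-87756887 and the 3p strand at chr11:87756903-87756925. Capitals mark the seed, bases 2 to 8, and the seeds of the 2 strands differ.
mmu-miR-142a-5p: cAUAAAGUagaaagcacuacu
mmu-miR-142a-3p: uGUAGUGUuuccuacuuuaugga
The Mir142 gene itself had log2 signals of 4.69, 4.70 and 4.26 in KO bone marrow, against 7.10, 8.25 and 7.14 in WT bone marrow. It had 4.05, 4.59 and 4.50 in KO spleen, against 6.77, 7.17 and 7.58 in WT spleen. No KO array overlapped a WT array, and the differences were −2.72 ± 0.32 in marrow and −2.91 ± 0.29 in spleen (log2 ± SE, limma, adjusted p = 0.000299 and 7.34e-05). Target sites of miR-142 in the 37 genes were not analysed here.

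The NK cell label held in its markers: all 10 (Ncr1, Klrb1c, Eomes, Prf1 and others) were tested, and their summed linear signal was 31630 to 34250 in KO marrow, 29070 to 33020 in WT marrow, 36200 to 38570 in KO spleen and 34400 to 36630 in WT spleen. Markers of other cells differed between the groups. Granulocyte markers summed to 1580 to 3131 in KO marrow against 4671 to 5524 in WT marrow, with 4 of 8 tested markers lower (S100a8 among them), and Ltf, Mmp8, Mmp9 and Ly6g below the level tested. In spleen they summed to 952.8 to 2099 in KO cells against 577.1 to 1153 in WT cells, with all 8 differences above 0 and 1 called higher, S100a8. T cell markers summed to 512.7 to 738 in KO marrow against 1476 to 1752 in WT marrow, with 3 of 5 lower (Cd3d, Cd3e, Cd3g) and Cd4 and Cd8b1 below the level tested, and to 523 to 731.4 in KO spleen against 571.1 to 683.4 in WT spleen, with 1 of 5 lower. Dendritic cell markers summed to 3444 to 3806 in KO marrow against 1451 to 1774 in WT marrow and to 4290 to 4830 in KO spleen against 1772 to 1993 in WT spleen, with 1 of 5 higher in marrow and 4 of 5 in spleen, and the defining Flt3, Siglech, Xcr1 and Clec9a below the level tested. The one called in marrow was the integrin gene Itgax, which made up most of the summed signal in each group. Its mean log2 signal was 11.47 in KO marrow against 10.04 in WT marrow, and 11.79 in KO spleen against 10.41 in WT spleen. Cell cycle genes summed to 4428 to 11020 in KO marrow against 7713 to 12550 in WT marrow, with 4 of 19 lower (Mcm3, Mcm4, Mcm5, Mcm7), and to 4361 to 5186 in KO spleen against 4128 to 4900 in WT spleen, with none of 19 called. Macrophage and monocyte markers summed to 1206 to 1360 in KO spleen against 2309 to 2564 in WT spleen, with 1 of 4 lower, Ccr2, and none of 4 was called in marrow. Ccr2 averaged 9.72 in KO spleen against 10.97 in WT spleen, while C1qa averaged 5.65 against 5.48 and Lyz2 6.42 against 6.19 in the same groups, and 7 of 11 markers, Csf1r and Adgre1 among them, lay below the level tested. Erythroid markers summed to 1120 to 1486 in KO spleen against 749.6 to 856.9 in WT spleen, with 2 of 4 higher, the carbonic anhydrase genes Car1 and Car2. Car2 made up most of the sum and averaged 9.99 in KO spleen against 9.26 in WT spleen. In the same groups Alas2 averaged 5.91 against 6.02 and Epor 5.77 against 5.91, and Klf1 lay below the level tested. In marrow 1 was higher, Car2, and 1 lower, Car1. B cell markers summed to 177.4 to 283.6 over all arrays, with none of 3 called between genotypes. The part of these cells or states in the results below was not tested, and in RNA from whole sorted samples fewer cells of a type and less RNA per cell cannot be told apart. Within groups the correlation between arrays was 0.968 to 0.986, and between groups it was 0.928 to 0.979.

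Promoters of the genes are shown before their signals, since SREBP acts there. RefSeq windows of 300 bases (build GRCm38.p6, 250 before to 50 after an annotated start) were found for 29 of the 36 genes, 7 of them with several starts. Fdps, Fdft1, Sqle, Scd1, Scd2, Fads1 and Abcg1 had no window, so their promoters were not searched. Motifs were searched by their letters on both strands, and a gene counted if any of its windows held one, overlapping matches each counted. The sterol regulatory element, spelled TCACNCCAC, was in 1 of 29 genes (3.45%), against 1.44% of 27025 genes with a window. The CCAAT box, bound by the SREBP partner NF-Y, was in 22 of 29 (75.9%, against 41.1% of all genes). The GC box, spelled GGGCGG and bound by SP1, was in 23 of 29 (79.3%, against 38.2%). The E-box CACGTG was in 8 of 29 (27.6%, against 8.09%). The shares of all genes took every gene with a window, whether or not it was on the array or tested. They were not matched for base composition or signal. A match is a description of letters, and a window without one says only that these letters are not in it.

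The single window with the sterol element was that of Hmgcs1, the synthase that makes HMG-CoA, and the 49 bases around it (chr13:119690194-119690242, plus strand) are given with the element in capitals.
Hmgcs1: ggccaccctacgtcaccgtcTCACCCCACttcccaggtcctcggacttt
The 4 genes with the lowest adjusted p over both tissues were Lpin1, Elovl7, Insig1 and Lss, and the 250 bases before their starts are given in the direction of the gene, with CCAAT boxes, GC boxes and E-boxes of either strand in capitals. They lie at chr12:16610967-16611216 (Lpin1, minus strand), chr13:108214154-108214403 (Elovl7, plus), chr5:28071162-28071411 (Insig1, plus) and chr10:76531355-76531604 (Lss, plus).
Lpin1: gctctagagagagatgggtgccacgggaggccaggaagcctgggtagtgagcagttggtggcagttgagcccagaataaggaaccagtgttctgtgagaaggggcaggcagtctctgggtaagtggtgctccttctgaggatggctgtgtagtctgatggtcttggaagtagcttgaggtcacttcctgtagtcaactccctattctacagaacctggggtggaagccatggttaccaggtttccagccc
Elovl7: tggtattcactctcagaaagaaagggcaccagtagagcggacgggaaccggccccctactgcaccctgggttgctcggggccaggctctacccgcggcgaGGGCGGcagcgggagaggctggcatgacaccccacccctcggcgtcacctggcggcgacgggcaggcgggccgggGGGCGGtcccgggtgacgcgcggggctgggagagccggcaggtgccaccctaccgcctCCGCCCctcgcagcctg
Insig1: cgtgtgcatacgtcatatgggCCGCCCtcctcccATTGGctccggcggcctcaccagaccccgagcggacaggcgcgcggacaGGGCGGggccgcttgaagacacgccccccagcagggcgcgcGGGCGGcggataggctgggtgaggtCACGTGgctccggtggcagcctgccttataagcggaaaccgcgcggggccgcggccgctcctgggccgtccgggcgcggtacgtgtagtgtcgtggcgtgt
Lss: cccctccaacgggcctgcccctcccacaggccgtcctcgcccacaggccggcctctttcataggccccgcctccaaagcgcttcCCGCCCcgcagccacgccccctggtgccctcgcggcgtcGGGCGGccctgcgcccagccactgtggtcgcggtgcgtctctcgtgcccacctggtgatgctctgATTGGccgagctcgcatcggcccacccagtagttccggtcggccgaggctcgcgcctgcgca
The Lpin1 stretch held none of the searched letters, the Elovl7 stretch held 3 GC boxes, the Lss stretch 2 GC boxes and a CCAAT box, and the Insig1 stretch 3 GC boxes, a CCAAT box and an E-box. Lpin1 and Elovl7 thus had no CCAAT box in these bases. Abca1, Acaca, Elovl6 and Scap, not called between genotypes, and Fads2, not tested, had none in their windows either. A link between the motifs and the differences in signal was not tested.

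**Figure D1:**
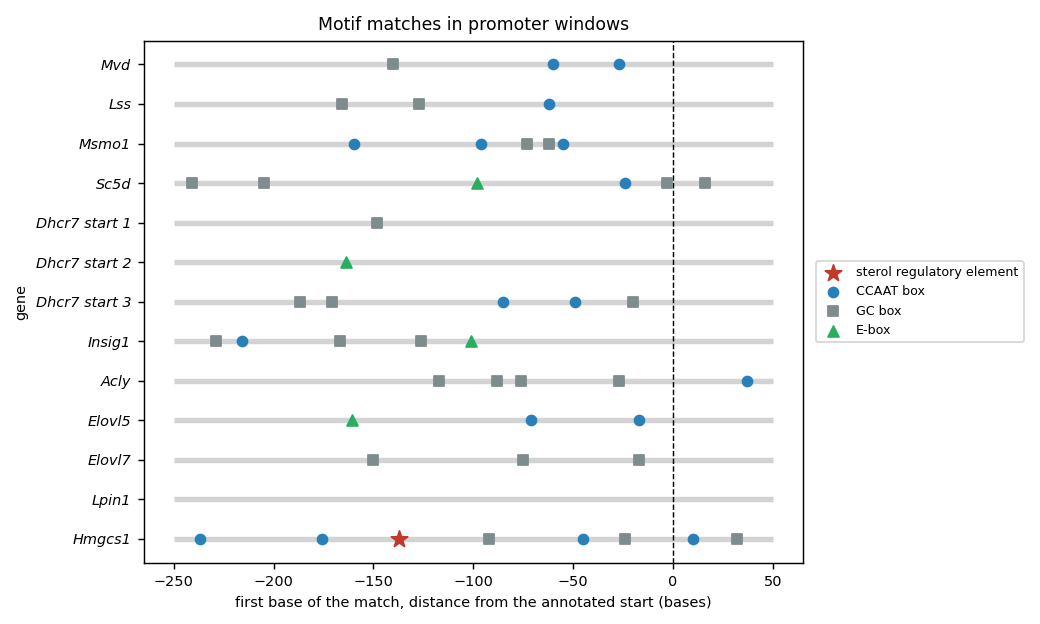
Motif matches in the promoter windows of genes called in at least 1 comparison and of Hmgcs1, with each match placed by its first base in bases from the annotated start (0, dashed line). The called genes Fdft1 and Scd2 had no window and are not shown. Each grey bar is 1 window of 300 bases, Dhcr7 has 3 annotated starts, and the star marks the 1 sterol regulatory element, in Hmgcs1.

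Between KO and WT cells, single genes of these pathways differed in opposite directions, while the median of the set lay near 0. The phosphatidate phosphatase Lpin1 and the fatty acid elongase Elovl7 fell most, and the lanosterol synthase Lss rose, in both tissues. The sterol sensor Insig1 and the elongase Elovl5 fell and the mevalonate enzyme Mvd rose in KO marrow, and the sterol desaturase Sc5d rose in KO spleen. In marrow 6 of 32 tested genes passed (18.8%, 2 higher and 4 lower), against 8.65% of all genes tested, 3.92% higher and 4.73% lower (limma, Benjamini-Hochberg adjusted p under 0.05 over all 11963 genes). In spleen 4 of 32 passed (12.5%, 2 higher and 2 lower), against 9.11% of all genes, 5.48% higher and 3.63% lower. Averaged over both tissues 12 of 32 passed (37.5%, 5 higher and 7 lower), against 19.1%, where 8.81% of all genes were higher and 10.3% lower. These shares only describe the set, since its genes were chosen with earlier results of these data known.

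The median difference of the 32 genes was −0.0207 in marrow and 0.0171 in spleen on the log2 scale, beside −0.0125 and −0.0133 for all genes tested. The sign of the difference was the same in both tissues for 28 of 32 genes (87.5%), beside 61% of all genes tested. KO and WT arrays did not overlap for 14 of 32 genes in marrow (34.2% of all genes did not) and for 11 of 32 in spleen (28%). In this fit Lss, Elovl7 and Lpin1 were called in each tissue, and Fdft1, Msmo1, Dhcr7, Acly and Scd2 only when both tissues were averaged. Under other settings some of these passed in 1 tissue (limma). Acly was called in marrow under a 60th percentile filter, with array weights and without the run covariate (adjusted p = 0.0346 to 0.0496). Scd2 was called in spleen under 4 alternatives (adjusted p = 0.0278 to 0.0424). Fdft1 was called in spleen without any 1 of WT marrow 1, WT marrow 3 or KO spleen 2 (adjusted p = 0.0294 to 0.031). Without WT bone marrow arrays 1 and 2, which leaves 1 array in that group and takes its spread from the other groups, 2 of the 6 marrow genes were called, Elovl7 and Lpin1. Insig1 was then at −0.82 (adjusted p = 0.107) and Lss at 0.70 (adjusted p = 0.148), and no other pair of arrays was left out.

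By their numbers in the labels the arrays form 2 runs, and differences within a run are set beside the fit, which has the run as a covariate. In marrow only the first run held both genotypes. There the difference was −1.89 for Lpin1, −1.31 for Elovl7, 1.20 for Lss, −1.09 for Insig1, 0.53 for Mvd and −0.40 for Elovl5. In spleen the differences in the first and the second run were −1.19 and −1.15 for Lpin1, −2.14 and −1.46 for Elovl7, 0.88 and 0.43 for Lss, and 0.84 and 0.64 for Sc5d. Each of these differences rests on 1 array on one side, WT marrow 1 in marrow, and in spleen KO spleen 3 in the first run and WT spleen 3 in the second.

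**Figure D2:**
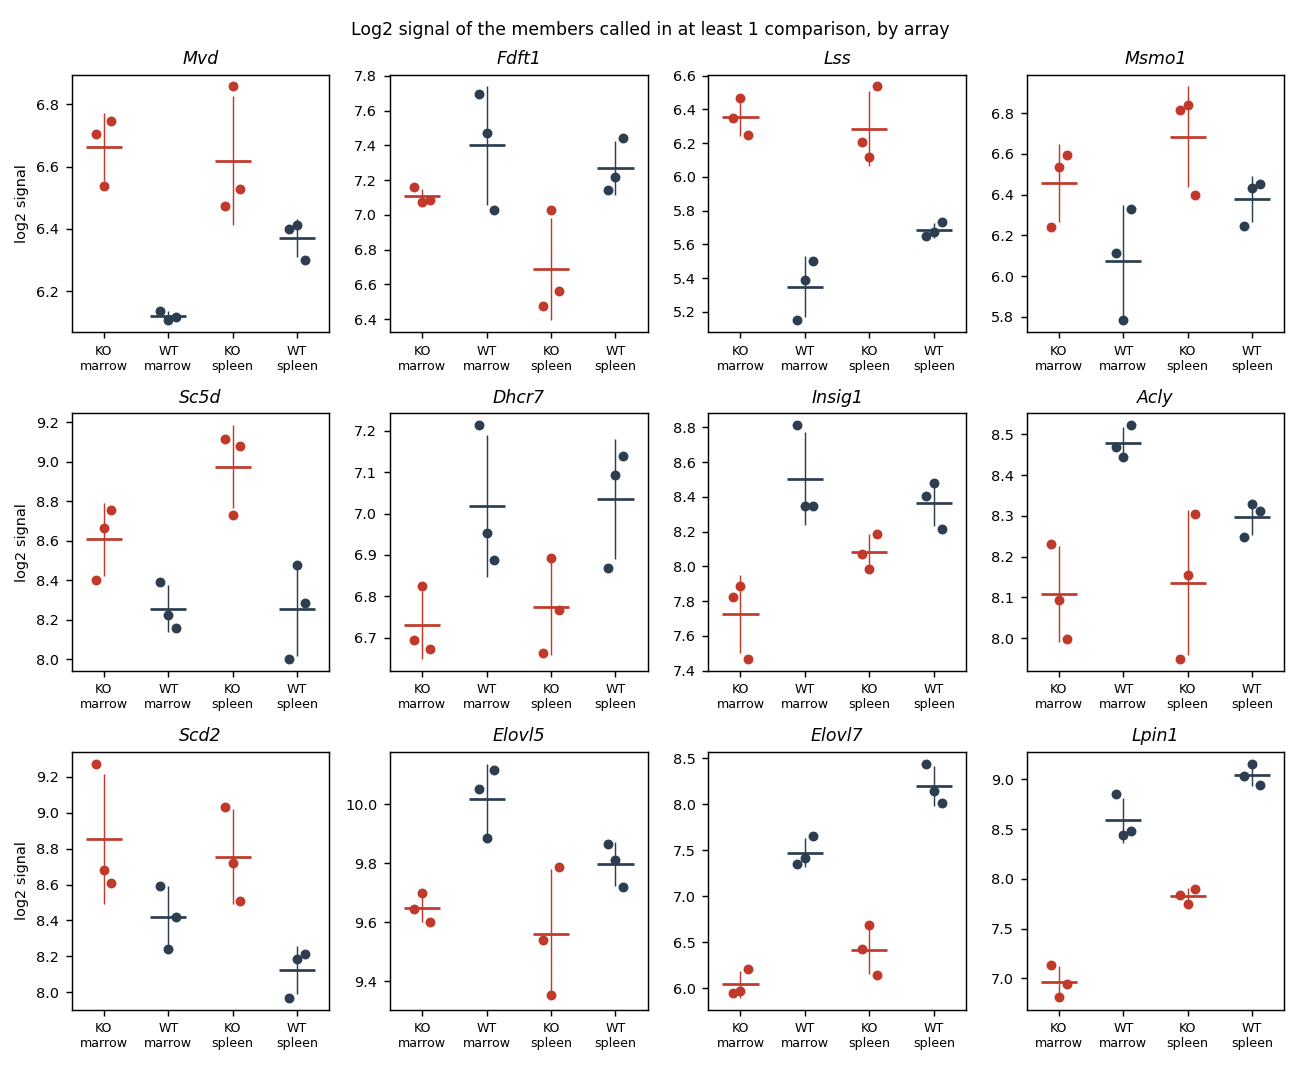
Log2 signal by array of the 12 genes called in at least 1 comparison, in KO marrow, WT marrow, KO spleen and WT spleen. Points are arrays, the horizontal bar is the mean and the vertical line is ± 1 SD (n = 3). The KO points of Lpin1 and Elovl7 lie below all WT points of the same tissue and those of Lss lie above.

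Of the enzymes from acetyl-CoA to farnesyl diphosphate, 5 were tested and 1 was called over both tissues, Mvd. Mvd, which removes carbon dioxide from mevalonate diphosphate, had log2 signals of 6.70, 6.54 and 6.75 in KO bone marrow, against 6.14, 6.11 and 6.12 in WT bone marrow. It had 6.47, 6.86 and 6.53 in KO spleen, against 6.40, 6.41 and 6.30 in WT spleen. Every KO array was above every WT array of its tissue, by a narrower gap in spleen. Mvd rose by 0.54 ± 0.13 in marrow (log2 ± SE, limma, 1.46-fold, adjusted p = 0.0266) and by 0.40 ± 0.08 over both tissues (adjusted p = 0.00558), and its spleen difference was 0.25 ± 0.12 (adjusted p = 0.255). The marrow call was lost without any 1 of KO marrow 1, KO marrow 3, WT marrow 1 or KO spleen 3 (0.50 to 0.57, adjusted p = 0.0577 to 0.149). Differences of Hmgcs1, Mvk, the phosphomevalonate kinase Pmvk and the isomerase Idi1 lay between −0.20 and 0.26 in marrow and between −0.10 and 0.09 in spleen, with none called. Hmgcs1, whose window holds the sterol element printed above, differed by 0.26 ± 0.14 in marrow and 0.09 ± 0.12 in spleen. Idi1 had its highest signals, 6.79 and 6.50, in the first KO and the first WT marrow array.

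The 10 enzymes from squalene synthesis to cholesterol were all tested, and over both tissues 3 rose and 2 fell. Lss, which closes the squalene chain into lanosterol, had log2 signals of 6.35, 6.46 and 6.25 in KO bone marrow, against 5.15, 5.39 and 5.50 in WT bone marrow. It had 6.20, 6.12 and 6.54 in KO spleen, against 5.65, 5.67 and 5.73 in WT spleen. All 6 KO arrays were above all 6 WT arrays. Lss rose by 1.00 ± 0.15 in marrow (2.01-fold, adjusted p = 0.0017), by 0.60 ± 0.14 in spleen (1.52-fold, adjusted p = 0.0168) and by 0.80 ± 0.09 over both (adjusted p = 0.000102, limma). In spleen the call rests on KO spleen array 3, the highest of its group: without it the difference was 0.35 (adjusted p = 0.175), and it was also lost without WT spleen 1 (adjusted p = 0.0506) or WT spleen 3 (adjusted p = 0.0709).

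Sc5d, the desaturase that sets the double bond in the sterol ring before the last step, had log2 signals of 8.40, 8.66 and 8.76 in KO bone marrow, against 8.39, 8.22 and 8.16 in WT bone marrow. It had 9.11, 8.73 and 9.08 in KO spleen, against 8.0, 8.48 and 8.28 in WT spleen. KO arrays were above WT arrays in both tissues, in marrow by a gap smaller than the spread within either group. Sc5d rose by 0.76 ± 0.16 in spleen (1.69-fold, limma, adjusted p = 0.00971) and by 0.52 ± 0.11 over both tissues (adjusted p = 0.00527), with 0.28 ± 0.17 in marrow (adjusted p = 0.346). Without KO spleen 3 its spleen difference was 0.72 (adjusted p = 0.0745).

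Msmo1, which oxidises the methyl groups that are then removed from the sterol ring, had 6.24, 6.54 and 6.60 in KO marrow, against 6.11, 5.78 and 6.33 in WT marrow, and 6.82, 6.84 and 6.40 in KO spleen, against 6.25, 6.43 and 6.45 in WT spleen. Its groups overlapped in both tissues, and it rose by 0.37 ± 0.11 over both (limma, adjusted p = 0.0389). Fdft1, which joins a pair of farnesyl diphosphates into squalene, had 7.16, 7.07 and 7.08 in KO marrow, against 7.70, 7.47 and 7.03 in WT marrow, and 6.48, 7.03 and 6.56 in KO spleen, against 7.14, 7.22 and 7.44 in WT spleen. It fell by 0.44 ± 0.13 over both tissues (adjusted p = 0.0354), without overlap of the arrays in spleen only. A second Fdft1 probe set gave the same difference, −0.44 ± 0.12. Dhcr7, which makes cholesterol from 7-dehydrocholesterol, had 6.69, 6.83 and 6.67 in KO marrow, against 7.21, 6.95 and 6.89 in WT marrow, and 6.66, 6.89 and 6.77 in KO spleen, against 6.87, 7.09 and 7.14 in WT spleen. The Dhcr7 arrays overlapped in spleen and not in marrow, and it fell by 0.28 ± 0.09 over both (adjusted p = 0.0402). These 3 calls lie close to the threshold. That of Msmo1 was lost without any 1 of KO marrow 2 and 3, KO spleen 1 and 2 and the 3 WT spleen arrays (0.34 to 0.41, adjusted p = 0.0546 to 0.0994). That of Fdft1 was lost without any 1 array other than WT marrow 3, KO spleen 2 and WT spleen 1 (−0.45 to −0.29, adjusted p = 0.0504 to 0.169), and that of Dhcr7 without any 1 other than these and KO marrow 2 (−0.29 to −0.20, adjusted p = 0.0533 to 0.188). WT marrow array 1 moved Fdft1 most among single arrays, to −0.29 without it, and without WT marrow 1 and 2 Fdft1 was at −0.18 (adjusted p = 0.457) and Dhcr7 at −0.18 (adjusted p = 0.342). With the replicate number as a block the calls of Msmo1 (0.37, adjusted p = 0.0605) and Dhcr7 (−0.28, adjusted p = 0.0531) were lost, and without the level filter they were lost too (adjusted p = 0.0525 and 0.0582). A second quantile normalization ended the calls of Fdft1 (−0.39, adjusted p = 0.0588) and Dhcr7 (−0.24, adjusted p = 0.0757).

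The other 5 sterol enzymes were not called over both tissues in this fit. Nsdhl, a sterol dehydrogenase of the demethylation steps, came closest at −0.41 ± 0.13 (limma, adjusted p = 0.051), and the lanosterol demethylase Cyp51 was at 0.28 ± 0.12 (adjusted p = 0.146). Nsdhl was called under 9 of 24 alternatives, the replicate block among them (−0.40, adjusted p = 0.0214). Cyp51 was called without WT marrow 1, which moved it to 0.43 (adjusted p = 0.0245), and without WT marrow 1 and 2, at 0.55 (adjusted p = 0.00829). Cyp51 differed by 0.12 ± 0.20 in marrow and 0.43 ± 0.18 in spleen. The squalene epoxidase Sqle was at 0.29 ± 0.16 in marrow, and the isomerase Ebp at −0.38 ± 0.30 in spleen. In KO marrow 1 array, the third, had an Ebp signal of 5.99, below the 6.62 to 7.59 of the other 11 arrays.

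Among the 5 genes of the SREBP machinery the inhibitor Insig1 was the one called in this fit. Insig1 had log2 signals of 7.83, 7.89 and 7.47 in KO bone marrow, against 8.81, 8.35 and 8.35 in WT bone marrow. It had 8.07, 7.99 and 8.19 in KO spleen, against 8.40, 8.48 and 8.21 in WT spleen. The genotypes did not overlap in either tissue, with a gap in spleen of less than the spread within each group. Insig1 fell by 0.97 ± 0.14 in marrow (1.96-fold lower, limma, adjusted p = 0.00128) and by 0.58 ± 0.09 over both tissues (adjusted p = 0.000638). In spleen it was at −0.19 ± 0.13, with a 95% interval of −0.46 to 0.08 (adjusted p = 0.435).

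Insig2, which holds SCAP back in the same way, had 7.58, 7.49 and 7.30 in KO marrow, against 6.99, 7.15 and 6.80 in WT marrow, and 7.59, 7.15 and 7.08 in KO spleen, against 7.36, 7.46 and 6.79 in WT spleen. Its marrow arrays did not overlap, but the difference of 0.40 ± 0.21 did not pass (limma, adjusted p = 0.279), and that of 0.11 ± 0.19 in spleen did not either (adjusted p = 0.817). Insig1 and Insig2 thus had differences of opposite sign in both tissues, of which that of Insig1 in marrow passed the test in this fit. With the replicate number as a block and no run covariate, Insig2 was also called in marrow (0.48, limma, adjusted p = 0.0358).

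Srebf1, which encodes the SREBP most tied to fatty acid genes, had 7.31, 7.37 and 7.37 in KO marrow, against 7.37, 7.28 and 7.13 in WT marrow, and 7.28, 7.38 and 7.49 in KO spleen, against 7.10, 7.26 and 7.35 in WT spleen. Srebf2, which encodes the one most tied to cholesterol genes, had 7.67, 7.74 and 7.49 in KO marrow, against 7.61, 7.70 and 7.54 in WT marrow, and 7.45, 7.47 and 7.57 in KO spleen, against 7.19, 7.54 and 7.32 in WT spleen. Scap, the escort, had 8.38, 8.34 and 8.33 in KO marrow, against 8.17, 8.11 and 8.44 in WT marrow, and 7.92, 8.27 and 8.21 in KO spleen, against 7.92, 8.05 and 8.19 in WT spleen. The genotypes overlapped for all 3 genes in both tissues. The differences were 0.05 ± 0.12 for Srebf1, −0.01 ± 0.13 for Srebf2 and 0.15 ± 0.14 for Scap in marrow, and 0.16 ± 0.11, 0.17 ± 0.12 and 0.06 ± 0.13 in spleen (limma, adjusted p = 0.441 to 0.96).

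**Figure D3:**
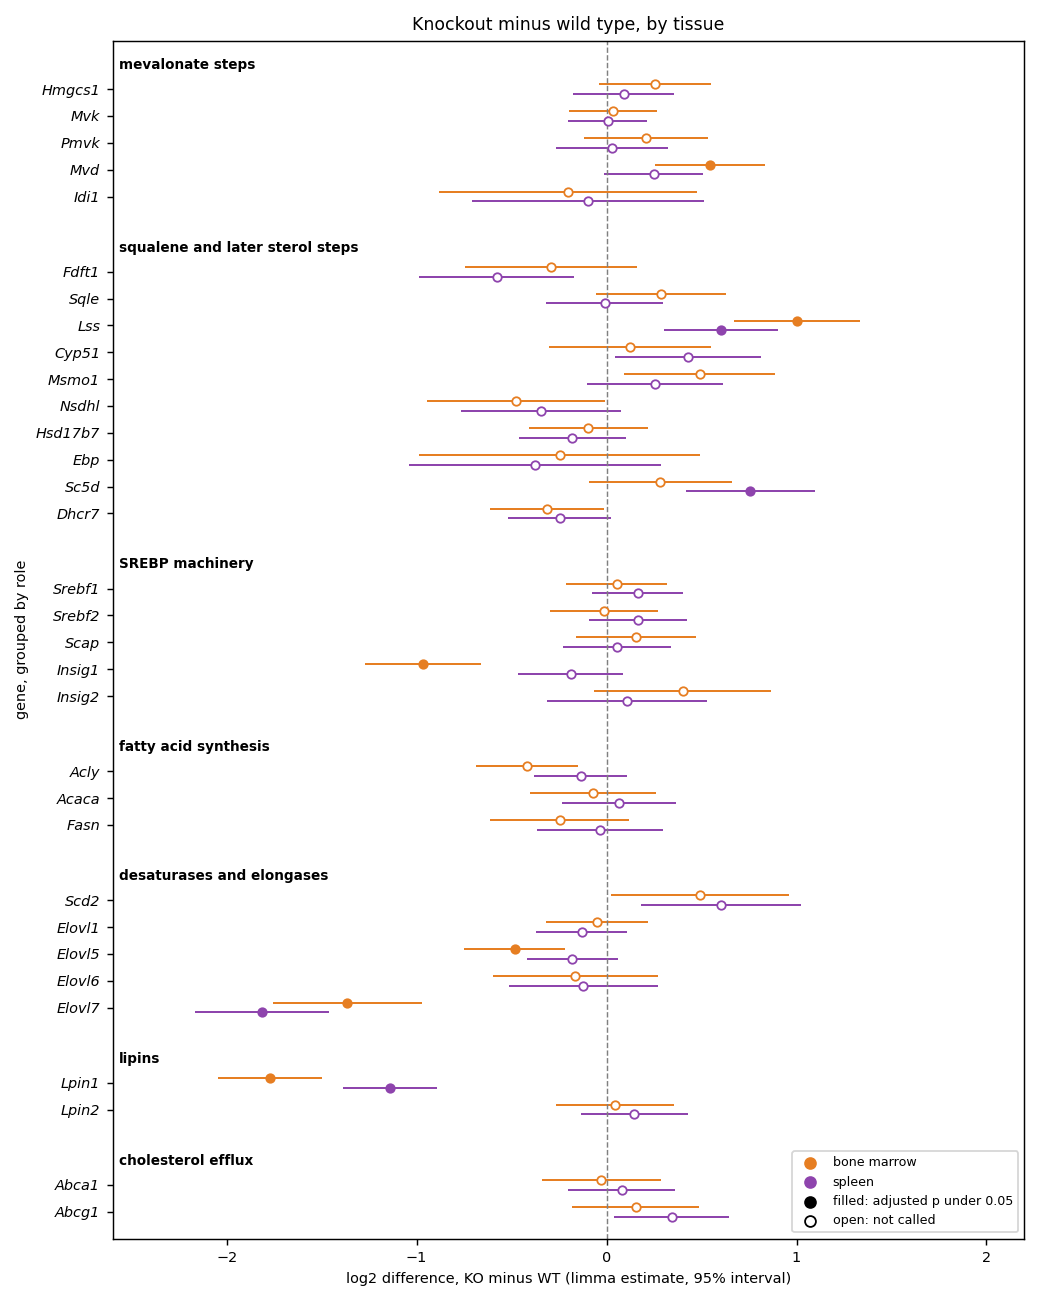
KO minus WT log2 difference of the 32 tested genes, grouped by role, in bone marrow (upper point of each gene) and spleen (lower point). Points are limma estimates, lines are 95% intervals, and filled points have an adjusted p under 0.05. Lpin1 (−1.77 and −1.14) and Elovl7 (−1.36 and −1.81) stand farthest below 0, and Lss (1.00 and 0.60) is filled above 0 in both tissues.

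Of the 3 enzymes of fatty acid synthesis, Acly was called over both tissues and, in this fit, none in either tissue alone. Acly, which makes cytosolic acetyl-CoA from citrate, had 8.23, 8.09 and 8.0 in KO bone marrow, against 8.47, 8.44 and 8.52 in WT bone marrow. It had 7.95, 8.16 and 8.30 in KO spleen, against 8.25, 8.33 and 8.31 in WT spleen. The arrays overlapped in spleen and not in marrow. Acly fell by 0.28 ± 0.08 over both tissues (limma, adjusted p = 0.0254), with −0.42 ± 0.12 in marrow (adjusted p = 0.0584) and −0.14 ± 0.11 in spleen (adjusted p = 0.538). The call was lost without any 1 of KO marrow 2 and 3, WT marrow 3, KO spleen 1 and WT spleen 2 and 3 (−0.28 to −0.23, adjusted p = 0.0507 to 0.066), and under a second quantile normalization (−0.23, adjusted p = 0.0754). The carboxylase Acaca and the synthase Fasn differed by −0.07 ± 0.15 and −0.25 ± 0.17 in marrow, and a second Acaca probe set gave the opposite sign to the first.

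Of the desaturases and elongases, 5 were tested, and over both tissues 1 rose and 2 fell. Elovl7, which lengthens long saturated fatty acids, had log2 signals of 5.95, 5.96 and 6.21 in KO bone marrow, against 7.35, 7.41 and 7.65 in WT bone marrow. It had 6.43, 6.68 and 6.15 in KO spleen, against 8.44, 8.14 and 8.01 in WT spleen. Every KO array was over 1 log2 unit below every WT array of its tissue. Elovl7 fell by 1.36 ± 0.18 in marrow (2.58-fold lower, limma, adjusted p = 0.00064), by 1.81 ± 0.16 in spleen (3.52-fold lower, adjusted p = 3.49e-05) and by 1.59 ± 0.11 over both (adjusted p = 1.6e-06). These calls were kept under every alternative that gave a value, 25 in each tissue and 24 over both.

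Elovl5, which lengthens polyunsaturated fatty acids, had 9.64, 9.70 and 9.60 in KO bone marrow, against 10.05, 9.89 and 10.12 in WT bone marrow. It had 9.54, 9.35 and 9.79 in KO spleen, against 9.87, 9.81 and 9.72 in WT spleen. The arrays overlapped in spleen and not in marrow. Elovl5 fell by 0.48 ± 0.12 in marrow (1.40-fold lower, limma, adjusted p = 0.0301) and by 0.33 ± 0.08 over both tissues (adjusted p = 0.00913), with −0.18 ± 0.11 in spleen (adjusted p = 0.386). The marrow call was lost without any 1 of the 3 KO marrow arrays, WT marrow 1 and 3, KO spleen 3 and WT spleen 1 (−0.58 to −0.43, adjusted p = 0.0507 to 0.0921). It was also lost without the run covariate (−0.37, adjusted p = 0.0502), with the block in its place (adjusted p = 0.0581), with marrow fitted alone (adjusted p = 0.0599) and under a second quantile normalization (−0.41, adjusted p = 0.0539).

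Scd2, a stearoyl-CoA desaturase, had 9.27, 8.68 and 8.61 in KO bone marrow, against 8.59, 8.24 and 8.42 in WT bone marrow. It had 9.03, 8.72 and 8.51 in KO spleen, against 7.97, 8.19 and 8.22 in WT spleen. KO arrays were above WT arrays in both tissues, in marrow by a gap smaller than the spread within either group. Scd2 rose by 0.55 ± 0.13 over both tissues (limma, adjusted p = 0.0134), with 0.49 ± 0.21 in marrow (adjusted p = 0.186) and 0.60 ± 0.19 in spleen (adjusted p = 0.0763). Elovl1 and Elovl6 were not called, and Scd1, Fads1 and Fads2 had mean signals of 4.09, 5.23 and 5.18, below the level tested.

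Lpin1, which turns phosphatidate into diacylglycerol and also acts on nuclear transcription, had log2 signals of 7.13, 6.82 and 6.94 in KO bone marrow, against 8.85, 8.44 and 8.48 in WT bone marrow. It had 7.84, 7.74 and 7.90 in KO spleen, against 9.03, 9.15 and 8.94 in WT spleen. All 6 KO arrays were below all 6 WT arrays, and the marrow KO arrays were the lowest of the 12. Lpin1 fell by 1.77 ± 0.13 in marrow (3.41-fold lower, limma, adjusted p = 7.53e-06), by 1.14 ± 0.11 in spleen (2.21-fold lower, adjusted p = 7.43e-05) and by 1.46 ± 0.08 over both tissues (adjusted p = 2.36e-07). These calls were kept under every alternative that gave a value, 25 in each tissue and 24 over both. Lpin2, its relative with the same enzyme activity, differed by 0.04 in marrow and 0.15 in spleen and was not called.

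The cholesterol exporters Abca1 and Abcg1 were not called between genotypes in this fit. Abcg1 was the nearer, at 0.34 ± 0.14 in spleen (limma, adjusted p = 0.167) and 0.25 ± 0.10 over both tissues (adjusted p = 0.0973). With the replicate number as a block and no run covariate it was called over both tissues (0.24, adjusted p = 0.0447).

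Whether the knockout difference itself differed between marrow and spleen was tested by the interaction, marrow minus spleen. No gene of the 32 passed (limma), against 0.00836% of all genes (1 of 11963), and 2 of 32 had an unadjusted p under 0.05, as did 1092 of all genes. These were Insig1, at −0.78 ± 0.20 (95% interval −1.22 to −0.34, unadjusted p = 0.00228, adjusted p = 0.31 in limma), and Lpin1, at −0.63 ± 0.18 (−1.02 to −0.23, unadjusted p = 0.0047, adjusted p = 0.321). The marrow call of Insig1 without one in spleen is thus not shown to be a difference between tissues. These estimates depend on the run covariate, since all KO marrow arrays lay in the first run, and group means differ less. Insig1 averaged 7.73 in KO and 8.50 in WT marrow, and 8.08 in KO and 8.37 in WT spleen. Lpin1 averaged 6.96 in KO and 8.59 in WT marrow, and 7.83 in KO and 9.04 in WT spleen.

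Between tissues, few of these genes were called, and each genotype had a different one. In KO cells 1 of 32 genes passed, lower in marrow (3.12%), against 0.318% of all genes, 0.092% higher and 0.226% lower. In WT cells 1 of 32 passed, also lower in marrow (3.12%), against 5.37% of all genes, 4.34% higher and 1.04% lower. Marrow and spleen arrays did not overlap for 6 of 32 genes in KO cells (16.3% of all genes did not) and for 13 of 32 in WT cells (31.6%). In the fit, with the run as a covariate, Lpin1 was lower in marrow of KO cells, at −1.01 ± 0.13 (2.01-fold lower, limma, adjusted p = 0.00493). In WT cells it was at −0.38 ± 0.11 (adjusted p = 0.0762). Its mean signals, with no run term, were 6.96 in KO marrow against 7.83 in KO spleen. In WT cells they were 8.59 in marrow against 9.04 in spleen. Elovl7 was lower in marrow of WT cells at −0.76 ± 0.16 (1.69-fold lower, adjusted p = 0.0215), and in KO cells it was at −0.31 ± 0.18 (adjusted p = 0.658). The KO call of Lpin1 was lost without KO spleen 3 (−1.10, adjusted p = 0.0626), and the WT call of Elovl7 without any 1 of WT marrow 1 or 2 or WT spleen 1 or 2 (−0.77 to −0.63, adjusted p = 0.0569 to 0.17). That the tissue difference differed between genotypes is the same interaction as above and did not pass.

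Abca1, which loads cholesterol onto apolipoprotein A-I, had 7.07, 7.17 and 7.08 in KO marrow, against 7.74, 7.54 and 7.71 in KO spleen, and 6.95, 7.19 and 7.43 in WT marrow, against 7.46, 7.68 and 7.53 in WT spleen. Abcg1, which exports cholesterol to mature lipoprotein particles, had 8.14, 7.79 and 8.10 in KO marrow, against 8.47, 8.54 and 8.60 in KO spleen, and 7.88, 7.65 and 8.09 in WT marrow, against 8.11, 8.13 and 8.31 in WT spleen. Every marrow array was below every spleen array of its genotype for both exporters, in WT cells by a gap smaller than the spread within either group. None of the differences passed in this fit: Abca1 was at −0.50 ± 0.14 in KO and −0.39 ± 0.13 in WT cells, and Abcg1 at −0.51 ± 0.15 and −0.32 ± 0.14 (limma, adjusted p = 0.098 to 0.289). With the replicate number as a block and no run covariate, Abcg1 was called in KO cells (−0.53, adjusted p = 0.047). In the same WT comparison 16 of 19 cell cycle genes and 7 of 8 granulocyte markers were higher in marrow, and in the KO comparison none was called. Their part in the tissue differences was not tested.

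**Figure D4:**
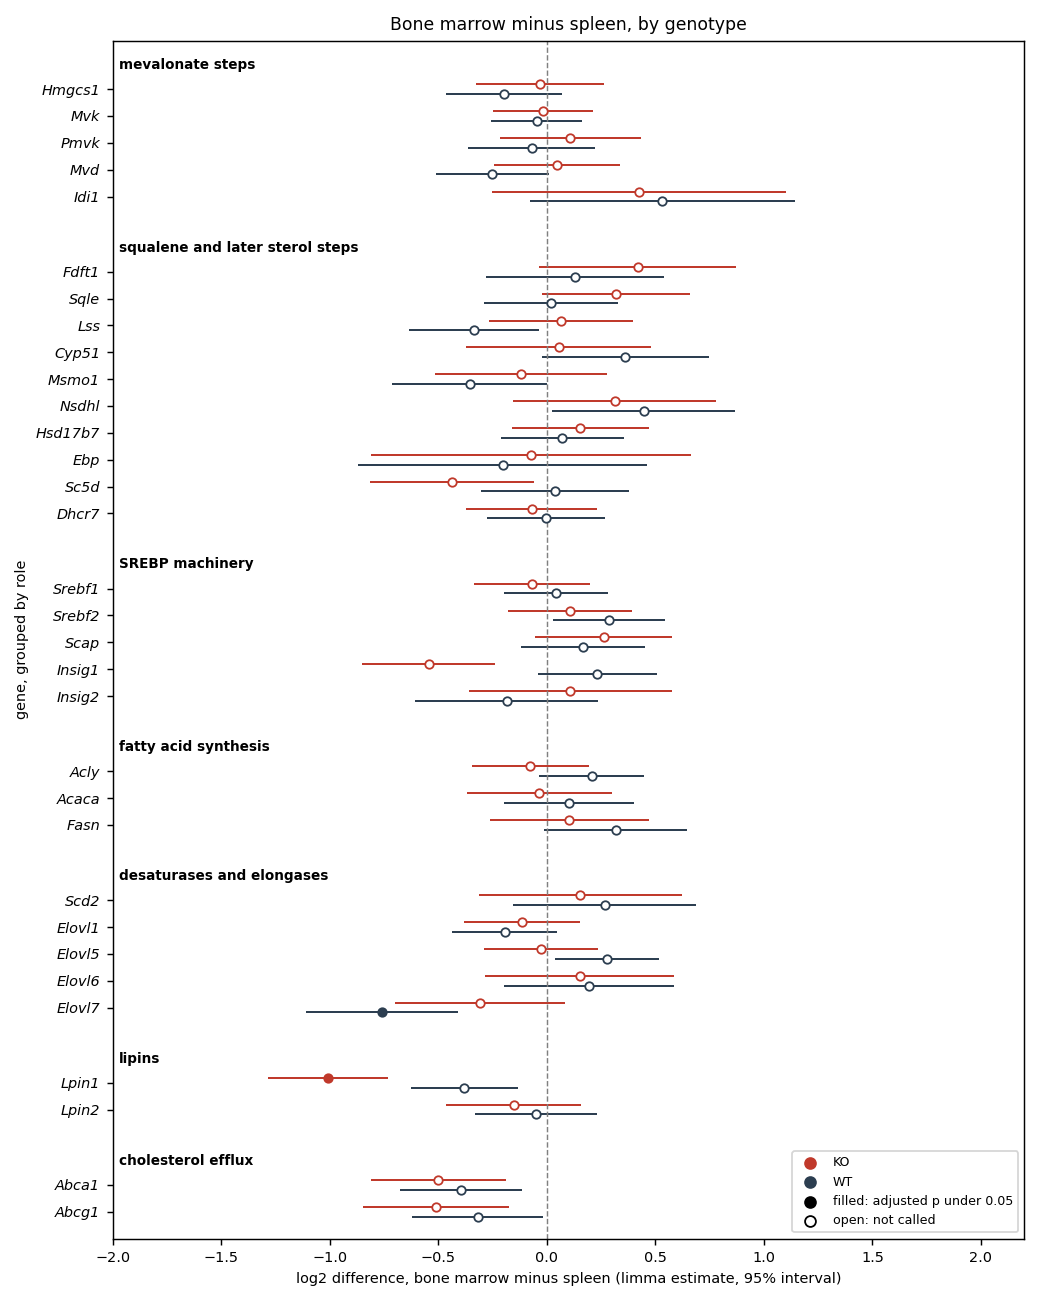
Bone marrow minus spleen log2 difference of the 32 tested genes, grouped by role, in KO cells (upper point of each gene) and WT cells (lower point). Points are limma estimates, lines are 95% intervals, and filled points have an adjusted p under 0.05. The filled points are Lpin1 in KO cells (−1.01) and Elovl7 in WT cells (−0.76).

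A list of 74 other genes of lipid metabolism (sterol transport, other SREBP control, isoprenoid branches, fatty acid supply and oxidation, glycerolipid synthesis) was read in the same fit, with 54 tested. Over both tissues 12 rose and 3 fell (27.8%, against 19.1% of all genes). In marrow 2 rose and 1 fell (5.56%, against 8.65%), and in spleen 9 rose and none fell (16.7%, against 9.11%). Gramd1a, which carries cholesterol between the plasma membrane and the endoplasmic reticulum, rose by 0.93 ± 0.13 in marrow and 0.92 ± 0.12 in spleen (limma, adjusted p = 0.000983 and 0.000409). In marrow the ubiquinone enzyme Coq2 rose by 0.54 ± 0.14 and the geranylgeranyl diphosphate synthase Ggps1 fell by 0.47 ± 0.13 (adjusted p = 0.0385 and 0.0457). In spleen the others of largest size were Dhdds of dolichol synthesis (0.56 ± 0.15), the mitochondrial citrate carrier Slc25a1 (0.52 ± 0.14), the SREBP-cutting protease Mbtps1 (0.48 ± 0.13), the farnesyltransferase subunit Fntb (0.46 ± 0.12) and the elongation enzyme Tecr (0.45 ± 0.11), with adjusted p = 0.0206 to 0.0416. Over both tissues Npc1, which releases cholesterol from lysosomes, rose by 0.42 ± 0.08, Erlin1, a sterol-binding membrane protein, by 0.52 ± 0.13, and Oxsm of mitochondrial fatty acid synthesis fell by 0.56 ± 0.16 (adjusted p = 0.00353, 0.0148 and 0.0308). Between tissues Agpat5 and Acsl5, which attach and activate fatty acids, were higher in WT marrow than in WT spleen (0.71 ± 0.17 and 0.41 ± 0.09, adjusted p = 0.0308 and 0.03), and none of the 54 was called in KO cells.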

How the data were processed

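Per the submitters' processing notes, the deposited log2 signals per probe set were made by the authors with Affymetrix Expression Console and RMA (background correction, quantile normalization, probe summary). The sources used here give no versions, array annotation or genome build. No further normalization was applied here. Of 35556 probe sets, 21789 had 1 gene symbol, 1621 several and 12146 none in the platform annotation, and the probe set with the highest mean was kept for each symbol.

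All 12 arrays were fitted in limma 3.58.1 (R 4.3.3), with a mean per group and the run of array numbers as a covariate (7 arrays in the first run, 5 in the second, which held WT spleen 3, KO spleen 1 and 2 and WT marrow 2 and 3). The run's own effect passed for 0 genes in limma, and 546 had an unadjusted p under 0.05. Moderated, two-sided p-values (7 residual and 4.74 prior degrees of freedom) were adjusted by Benjamini-Hochberg over the 11963 genes tested in each of 6 comparisons. Differences are log2 with their standard errors, and folds are their antilogs. The fit was also run on simulated data, with independent noise for each array and no run or replicate effect. That simulation cannot show how such effects move the calls. Precision is limited by the number of arrays.

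Signals of every array are given for genes called in a comparison and for the SREBP machinery, and from the list of other lipid genes up to 6 called genes of largest difference are named in each comparison. The exporters' signals between tissues and single low or high arrays of Ebp and Idi1 were chosen after their values were seen. The lists of other lipid genes and markers, like the genes themselves, were chosen with earlier results of these data known. Alternatives changed the run covariate, replicate block, samples fitted, level filter, probe set choice, scaling, variance model and arrays used.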

Additional observations from a re-analysis of the deposited data

How the results depend on the processing

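Of 24 calls of the 37 genes, 11 were kept under every one of the 25 alternatives that gave them a value, and 13 were lost under at least 1. None changed direction, and of 168 results not called, 10 were called under at least 1 alternative. Where a count moved, the cause was not tested, apart from the smaller number of arrays in fits that left arrays out. Leaving out 1 array at a time gave 4 to 6 calls in marrow, 2 to 5 in spleen, 8 to 11 over both tissues, 0 in the interaction, and 0 to 1 between tissues in KO and in WT cells. The lowest spleen count, and the 0 in KO cells, came without KO spleen 3, and the 0 in WT cells without WT spleen 1 or 2 or WT marrow 1 or 2. Without WT marrow arrays 1 and 2 together, 2 genes were called in marrow and 0 between tissues in WT cells. That leaves 1 WT marrow array, with its spread taken from the other groups. Fitting each tissue or genotype alone gave no value for the average over tissues and the interaction, and Lss lay below the 60th percentile filter.

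Deviations of same-numbered arrays from their group means correlated at −0.0196 to 0.243 between groups, and 6 of 18 pairs exceeded 0.1. Those of arrays with different numbers correlated at −0.225 to 0.066. What the replicate number stands for was not tested, and the main fit does not include it. With the replicate number as a block 6 genes were called in marrow, 4 in spleen and 11 over both tissues, where Msmo1 (adjusted p = 0.0605) and Dhcr7 (adjusted p = 0.0531) were lost and Nsdhl (adjusted p = 0.0214) was gained. Over both tissues a second quantile normalization gave 9, without Fdft1, Dhcr7 and Acly, and leaving out WT marrow 1 and 2 gave 8, without Mvd, Fdft1, Msmo1, Dhcr7 and Acly and with Cyp51. The block without the run covariate gave 2 between tissues in WT cells and 2 in KO cells, and a second quantile normalization gave 2 in WT cells.

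Over all genes, some counts moved by more than 1.5 times. In marrow the 1035 calls became 1590 without the run covariate, 1662 with the block and no run covariate, 371 without WT marrow 1 and 218 without WT marrow 1 and 2. In spleen the 1090 became 647 without KO spleen 3 and 546 without WT spleen 3. Over both tissues the 2290 became 1346 without WT marrow 1 and 2. In the interaction the 1 became 0 to 11. In WT cells the 643 between tissues became 1135 with array weights and 977 with median centring. They became 82 to 395 without any 1 of the 3 WT spleen arrays or WT marrow 1 or 2, and moved less without WT marrow 3. In KO cells the 38 became 87 without the run covariate and 128 with the block and no run covariate. They became 1 to 25 without any 1 of KO spleen 1 or 3, KO marrow 3, WT spleen 3 or WT marrow 1 or 2, and moved less without the others. A second quantile normalization gave 539 higher and 379 lower in marrow, where the main setting gave 469 and 566, 1233 and 1013 over both tissues (main 1054 and 1236), and 419 and 179 between tissues in WT cells (main 519 and 124). Median centring there gave 901 and 76.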
